A study of Mus musculus and Rattus norvegicus with 53 samples.

Results

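The 9 genes described here encode proteins of tight junctions and of the junctions that Schwann cells (SCs) build between their own membranes. They were chosen by symbol as Cldn1, Cldn11, Cldn12, Cldn19, Ocln, Tjp1, Jam2, Jam3 and F11r, among the 24016 mouse genes that the count files list. Their levels were followed in SCs of adult mouse sciatic nerve after transection. All 47 mouse libraries came from tdTomato+ cells, sorted by flow cytometry from reporter mice of both sexes aged 6 to 8 weeks. In these mice Cre recombinase is driven by a promoter of the SC lineage and switches on tdTomato from the Rosa26 locus. All groups therefore carry the same alleles, and cells that recombined outside the SC lineage would be sorted with the rest. In the pooled experiment each library combined nerves of 3 mice, with 4 libraries each of intact contralateral nerve (iSCs), distal stump (dSCs) and nerve bridge (bSCs) on day 6. In the single-nerve experiment there were 5 libraries of iSCs, 3 of dSCs at each time (day 1, day 2 and every second day from 4 to 10), and 3 of bSCs at each time from day 4 on. The bridge is the new tissue that joins the severed stumps.

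A tight junction is a seam between neighbouring membranes. Claudins and occludin (Ocln) are its membrane-spanning strands, zonula occludens proteins such as ZO-1 (Tjp1) are the scaffold beneath them, and the junctional adhesion molecules JAM-A (F11r), JAM-B (Jam2) and JAM-C (Jam3) are immunoglobulin-like proteins beside them. Myelinating SCs make them between layers of their own membrane, where claudin-19 and JAM-C are found. The perineurium, the sheath around a nerve fascicle, makes them with claudin-1 and occludin. The endothelium of the nerve's vessels makes them with claudin-5 and occludin and forms the blood-nerve barrier.

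The libraries held 11435463 to 22617054 counts on genes in the pooled experiment and 9240883 to 22426128 in the single-nerve experiment. Levels are given as CPM, a gene's count scaled to a common library total, with library sizes scaled by the trimmed mean of M-values. A gene was called changed at a Benjamini-Hochberg adjusted p under 0.05 over all genes tested in edgeR's quasi-likelihood test, over 13751 pooled and 15519 single-nerve genes. All 9 genes passed the filter on low counts in both experiments. By the Ensembl models of NCBIM37, the build of the alignment, the genes with called differences other than Cldn19 are Jam3 on chromosome 9 (26904969 to 26963003, minus strand), Cldn11 on chromosome 3 (31048868 to 31063246, plus), Ocln on chromosome 13 (101266462 to 101322673, minus), Cldn1 on chromosome 16 (26356728 to 26371927, minus), Tjp1 on chromosome 7 (72441051 to 72516125, minus) and F11r on chromosome 1 (173367666 to 173394734, plus), and none of their exons overlaps another gene. Sox10, a transcription factor of the SC lineage, was found in every library, at 63.0 to 422 CPM in pooled and 6.85 to 166 CPM in single nerves. Other SC markers were close to absent in some libraries. S100b, the gene of the SC protein S100β, was at 159 to 230 CPM in pooled iSCs, 62.0 to 95.4 CPM in dSCs and 2.70 to 56.6 CPM in bSCs. In single nerves its lowest values were 2.07 CPM in dSCs and 0.264 CPM in bSCs. Erbb3 was at 0 in 1 of the 35 single-nerve libraries. Genes used as markers of other cells were also present. The summed level of 8 fibroblast genes was 8782 to 48995 CPM in pooled iSCs, 29261 to 42746 CPM in dSCs and 13157 to 26581 CPM in bSCs. That list holds matrix genes such as Dcn and Col1a1, and also Pdgfra and Pi16. Pdgfra was at 53.0 to 217 CPM in pooled iSCs, 79.8 to 214 CPM in dSCs and 0.172 to 62.8 CPM in bSCs. Pi16 was at 67.6 to 990, 341 to 712 and 0.420 to 41.5 CPM in the same order. By flow cytometry the paper found the great majority of tdTomato+ cells positive for the SC marker S100β. Which cells the fibroblast genes came from was not tested. Fewer cells of a type and less RNA per cell cannot be told apart in such libraries. Another point concerns the labels. The single-nerve libraries labelled distal day 4 replicate 1 and bridge day 4 replicate 1, from the same animal, were nearly the same in content. Their counts differed by a chi-square of 3.90 per degree of freedom, against at least 46.2 for every other of the 1081 pairs of mouse libraries and 1.12 to 1.30 between sequencing lanes of a single library. Which region they represent could not be decided here, so the calls that rest on them, and the differences between regions within animals, are also given without both.

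Claudin-19, the claudin of SC myelin, fell in both injured regions. In the pooled experiment Cldn19 stood at 293, 294, 431 and 159 CPM in iSCs, at 0, 12.3, 12.7 and 6.19 CPM in dSCs and at 31.0, 2.78, 38.0 and 4.34 CPM in bSCs. Every iSC library was above every library of injured nerve, and the dSC and bSC values overlapped. The difference from iSCs was -5.23 ± 1.14 (log2 ± SE) in dSCs (adjusted p = 0.0192) and -3.95 ± 1.07 in bSCs (adjusted p = 0.0252). The difference between bSCs and dSCs, 1.28 on the log2 scale with a 95% interval from -0.83 to 3.39, was not called (adjusted p = 0.504). With the pool number as a block, which pairs regions whose labels carry the same number, Cldn19 was not called in dSCs (adjusted p = 0.0836) or bSCs (adjusted p = 0.0875). Leaving out a single library also ended the dSC call of Cldn19 for intact replicate 4 (adjusted p = 0.0501), distal replicate 2 (0.0509) and distal replicate 5 (0.0696). The bSC call ended without intact replicate 1 (adjusted p = 0.0518), intact replicate 4 (0.0583), bridge replicate 2 (0.0535) or bridge replicate 5 (0.0587).

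The summed SC markers, a list weighted to myelin genes, were lower in both injured regions of the pooled experiment. The summed level of 11 SC genes was 27818 to 69830 CPM in pooled iSCs, 1867 to 6724 CPM in dSCs and 1959 to 5656 CPM in bSCs. The genes of peripheral myelin Pmp22, at 17402 to 43872 CPM in iSCs, and Mbp, at 4599 to 15323 CPM, made up much of it. Ngfr, a neurotrophin receptor of the same list, went the other way, at 92.6 to 231 CPM in iSCs, 571 to 1801 CPM in dSCs and 351 to 899 CPM in bSCs. Sox10 was 220 to 422 CPM in iSCs and 63.0 to 219 CPM after injury. In single nerves the SC sum was 7038 to 33203 CPM in iSCs, 1413 to 11472 CPM in dSCs and 764 to 5792 CPM in bSCs. The summed level of 12 macrophage genes was 229 to 5953 CPM in iSCs, 10547 to 17552 CPM in dSCs and 2681 to 8356 CPM in bSCs. The part of the cell mixture in the Cldn19, Cldn11 and Jam3 results was not tested.

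In single nerves Cldn19 stood at 217, 128, 16.1, 84.6 and 38.0 CPM in the 5 iSC libraries. It was between 9.66 and 61.1 CPM on days 1 and 2, with 2 of 6 libraries below the lowest iSC library, and between 0 and 21.1 CPM in dSCs of days 4 to 10, with 10 of 12 below it. The 12 bSC libraries ranged from 0 to 41.9 CPM, and 10 of them were below the lowest iSC library. The test over all dSC days was not passed (adjusted p = 0.258), nor was the test over all bSC days (adjusted p = 0.270). Of 6 alternative settings, 1 called Cldn19 over dSC days and 0 over bSC days. Of the fits with a library left out, 0 of 23 called it over dSC days and 1 of 17 over bSC days, that without bridge day 6 replicate 3 (adjusted p = 0.0139). The Cldn19 gene lies on chromosome 4 from 118928019 to 118935043 (NCBIM37, plus strand), and its exons overlap those of Gm12927 on the opposite strand, so reads of the overlap could not be assigned by position alone.

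JAM-C, the junctional adhesion molecule of SC membranes, fell in both injured regions and had the smallest adjusted p of the 9 genes in both comparisons with pooled iSCs. Jam3 stood at 290, 298, 260 and 129 CPM in pooled iSCs, at 57.8, 42.8, 42.0 and 59.0 CPM in dSCs and at 35.7, 56.9, 44.1 and 50.5 CPM in bSCs. The lowest iSC library lay above the highest library of either injured region, and the 8 injured libraries lay within a narrow band. The log2 difference from iSCs was -2.28 ± 0.29 in dSCs (4.85-fold lower, adjusted p = 0.000982) and -2.38 ± 0.30 in bSCs (5.22-fold lower, adjusted p = 0.000337). It was also called with the pool number as a block, at adjusted p = 0.0232 in dSCs and 0.0105 in bSCs, and without any single pooled library. Between bSCs and dSCs the Jam3 difference was -0.11 on the log2 scale, with a 95% interval from -0.71 to 0.50.

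In single nerves Jam3 ranged from 67.1 to 442 CPM over the 5 iSC libraries, with a median of 146 CPM. The 18 dSC libraries ran from 28.6 to 150 CPM, with a median of 60.0 CPM, and the 12 bSC libraries from 29.6 to 130 CPM, with a median of 54.8 CPM. The groups overlapped, with 10 of the 18 dSC libraries and 9 of the 12 bSC libraries below the lowest iSC library. Neither test over days was passed (adjusted p = 0.335 for dSCs and 0.147 for bSCs). Of 7 alternative settings, 0 called Jam3 over dSC days and 1 over bSC days.

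Claudin-11, best known as the claudin of central myelin, fell in bSCs. Cldn11 stood at 36.8, 81.2, 41.9 and 13.2 CPM in pooled iSCs, at 16.4, 7.60, 4.43 and 6.04 CPM in dSCs and at 0, 0.0731, 3.70 and 2.89 CPM in bSCs. The bSC libraries lay below all others, and 1 dSC library was above the lowest iSC library. The log2 difference between bSCs and iSCs was -4.70 ± 1.32 (adjusted p = 0.0302), and that between dSCs and iSCs was -2.33 ± 1.19 and was not called (adjusted p = 0.371). bSCs and dSCs did not overlap, yet the difference of -2.37 ± 1.20 was not called (adjusted p = 0.279). With the pool number as a block the bSC difference in Cldn11 was not called (adjusted p = 0.187), nor when only iSC and bSC libraries were fitted (adjusted p = 0.0602). The Cldn11 call also ended without intact replicate 1 (adjusted p = 0.0584), intact replicate 2 (0.0887), intact replicate 4 (0.0574), bridge replicate 2 (0.0507) or bridge replicate 5 (0.0502). In single nerves Cldn11 was low throughout, at 1.67 to 27.1 CPM in iSCs and 0 to 22.3 CPM after injury, and 9 of the 30 injured libraries held no Cldn11 count.

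The start regions of Cldn19 and Cldn11, the claudins that fell in pooled SCs, are shown with the motifs of 2 families of SC regulators. The 250 bases before the most upstream RefSeq start listed (GRCm38.p6, plus strand, 5′ to 3′) were searched on both strands for GTGGGCG, a core of the site bound by EGR factors, and for ACAAAG and ACAATG, cores of sites bound by SOX factors. Capitals mark a match. Cldn19 is on chr4:119255191-119255440 and Cldn11 on chr3:31149670-31149919.
Cldn19: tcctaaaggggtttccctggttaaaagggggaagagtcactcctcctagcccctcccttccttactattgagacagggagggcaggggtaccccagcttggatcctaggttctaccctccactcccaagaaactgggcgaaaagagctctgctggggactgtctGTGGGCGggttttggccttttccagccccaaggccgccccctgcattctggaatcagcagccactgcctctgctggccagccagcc
Cldn11: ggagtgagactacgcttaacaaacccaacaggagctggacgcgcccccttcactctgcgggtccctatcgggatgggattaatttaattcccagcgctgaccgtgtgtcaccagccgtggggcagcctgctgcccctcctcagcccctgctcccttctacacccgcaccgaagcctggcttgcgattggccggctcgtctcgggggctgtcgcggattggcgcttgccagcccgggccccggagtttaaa
Cldn19 held 1 GTGGGCG on the plus strand and no SOX core, and Cldn11 held none of the 3 motifs. GTGGGCG was found in 7.02% of all 32851 start regions of the same length, ACAAAG in 16.5% and ACAATG in 10.7%. Of the 7 genes with an entry, Cldn19 and F11r held GTGGGCG at 1 or more of their listed starts, Cldn1 held ACAAAG, and none held ACAATG. Counted per start, as the shares are, 3 of the 11 starts of these genes held GTGGGCG, 1 held ACAAAG and 0 held ACAATG. Jam2 and Jam3 had no entry.

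Of the 9 genes, 2 were called between pooled dSCs and iSCs (Cldn19 and Jam3), both lower in dSCs, where 5.32% of all genes were called and 2.69% were called lower. Between bSCs and iSCs 4 were called, all lower in bSCs (Cldn11, Cldn19, Ocln and Jam3), where 14.7% of all genes were called and 7.46% were called lower. Between bSCs and dSCs only Ocln was called, lower in bSCs, where 5.43% of all genes were called and 3.11% were called lower. The median log2 difference of the 9 genes was -0.71 in dSCs and -1.16 in bSCs against iSCs, beside -0.02 and -0.16 for all genes tested.

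**Figure D1:**
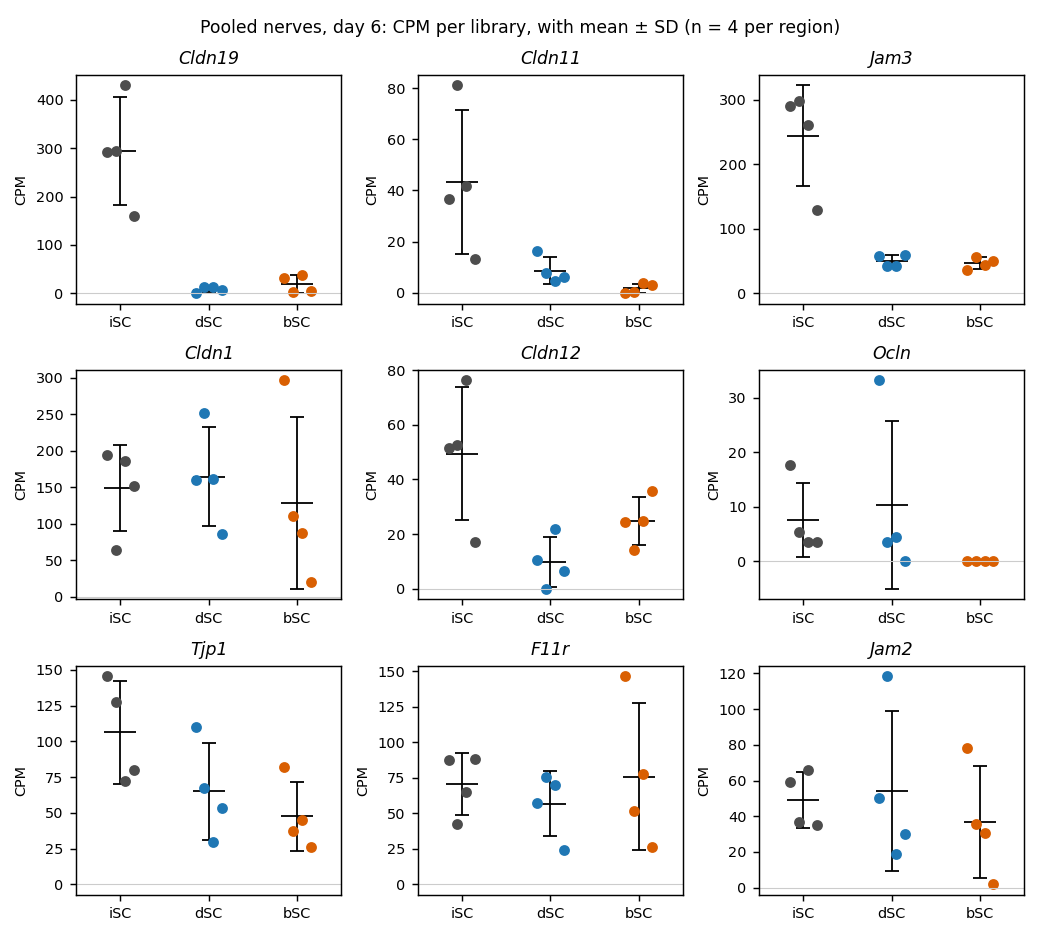
Levels of the 9 genes in the pooled experiment, in CPM on linear axes that differ between panels, for iSCs, dSCs and bSCs of day 6. Points are libraries, and bars give the mean and SD of 4 libraries. Cldn19 and Jam3 are higher in every iSC library than after injury, Ocln is at 0 in every bSC library, and Cldn1, Jam2 and F11r overlap among the regions.

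Occludin was absent from the counts of pooled bSCs. Ocln stood at 17.6, 5.39, 3.64 and 3.47 CPM in iSCs, at 33.2, 3.50, 4.43 and 0.149 CPM in dSCs and at 0 in all 4 bSC libraries. A count of 0 allows up to 3 counts per library, which is 0.188 CPM on average in these 4 libraries and covers counting error only. Against that floor Ocln was at least 40.1-fold lower in bSCs than in iSCs (adjusted p = 0.0110) and at least 54.9-fold lower than in dSCs (adjusted p = 0.0232). These bounds rest largely on a single library of each group. Without intact replicate 1 the iSC mean was 4.17 CPM and the bound 22.2-fold. Without distal replicate 1 the dSC mean was 2.69 CPM and the bound 14.3-fold, and the 0.149 CPM of distal replicate 5 lies under the floor itself. The iSC and dSC values overlapped (adjusted p = 0.943). With the pool number as a block neither Ocln difference was called (adjusted p = 0.0547 against iSCs and 0.0983 against dSCs). Without distal replicate 1, which holds the highest value, the difference from dSCs was not called (adjusted p = 0.0550), and without bridge replicate 5 it was not called either (adjusted p = 0.0504).

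Ocln was also lowest on average in bSCs of single nerves, from other animals, without passing the test. Ocln ranged from 0.140 to 48.5 CPM in the 5 iSC libraries, with 4 of them at or above the 12 CPM of intact replicate 1, and from 0 to 27.5 CPM in the 18 dSC libraries. All 12 bSC libraries were at 4.05 CPM or less, 5 of them with no count. Averaged over days 4 to 10, the log2 difference between bSCs and dSCs was -3.94 ± 1.15, with a 95% interval from -6.29 to -1.59 (unadjusted p = 0.00179, adjusted p = 0.169). DESeq2 called Ocln in this comparison (adjusted p = 0.00272). Without the near-identical day 4 pair it was -3.99 (adjusted p = 0.176). Among the 11 animals with both regions, Ocln was lower in the bridge in 8, higher in 1, and at 0 in both regions in 2, with a mean log2(CPM + 1) difference of -1.56 ± 2.06 (SD). Without the near-identical pair it was lower in 8 of 10, with a mean of -1.72 ± 2.10. With the animal as a block the difference was -3.69 (adjusted p = 0.539).

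The summed perineurial markers were also lowest in bSCs. The summed level of 6 perineurial genes was 182 to 443 CPM in pooled iSCs, 111 to 508 CPM in dSCs and 36.6 to 81.4 CPM in bSCs. Among them, Msln was at 10.7 to 81.3 CPM in iSCs, 13.4 to 85.2 CPM in dSCs and 0 to 0.0859 CPM in bSCs. Tenm2 was at 6.89 to 56.7, 43.4 to 116 and 0 to 1.12 CPM and Lypd2 at 6.26 to 39.4, 3.21 to 10.9 and 0 to 4.90 CPM in the same order. Slc2a1, a glucose transporter, was at 114 to 343, 38.0 to 311 and 34.9 to 81.4 CPM. Krt23 did not share this pattern, at 0.0807 CPM or less in iSCs and 0 to 28.4 CPM in bSCs, and Muc1 was at 0 in 9 of the 12 libraries. In single nerves the perineurial sum was 570 to 1715 CPM in iSCs, 54.9 to 478 CPM in dSCs and 32.5 to 169 CPM in bSCs. Slc2a1 made up much of it, at 486 to 1336, 53.8 to 345 and 26.9 to 140 CPM in the same order. Msln (3.95 to 354, 0 to 103 and 0 to 13.2 CPM) and Tenm2 (1.40 to 101, 0 to 142 and 0 to 37.6 CPM) overlapped among the regions. Lypd2 was at 11.8 to 193, 0 to 32.6 and 0 to 9.54 CPM. Krt23 and Muc1 were at 0 in 22 and 23 of the 35 libraries. The part of these cells in the Ocln result was not tested.

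Claudin-1, a claudin of the perineurium, was not called between pooled regions and was low in the first days of the time course. Cldn1 stood at 194, 64.7, 186 and 151 CPM in pooled iSCs, 160, 251, 161 and 86.2 CPM in dSCs and 296, 110, 87.9 and 20.9 CPM in bSCs. The regions overlapped, and the log2 difference between dSCs and iSCs was 0.15, with a 95% interval from -1.15 to 1.44. In single nerves the 5 iSC libraries held 313, 422, 507, 338 and 155 CPM. The 9 dSC libraries of days 1, 2 and 4 all lay between 17.7 and 112 CPM, below every iSC library. The 9 dSC libraries of days 6, 8 and 10 lay between 98.4 and 345 CPM, and 7 of these 9 were within the iSC range.

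The log2 difference in Cldn1 from iSCs was -1.91 ± 0.67 on day 1, -3.05 ± 0.72 on day 2, -2.82 ± 0.71 on day 4, -0.81 ± 0.64 on day 6, -0.51 ± 0.63 on day 8 and -0.65 ± 0.64 on day 10 in dSCs. It was called on day 2 (adjusted p = 0.0443) and day 4 (adjusted p = 0.0311), and the test over all dSC days fell just short (adjusted p = 0.0544). Of 7 alternative settings, 4 called Cldn1 over dSC days and 1 over bSC days, and no fit with a library left out did. In bSCs Cldn1 was at 112, 19.2 and 28.5 CPM on day 4 and was called (-2.70 ± 0.70, adjusted p = 0.0418), while the test over all bSC days was not passed (adjusted p = 0.155). Without the near-identical pair the Cldn1 difference was -3.03 ± 0.69 on day 2 and stayed called (adjusted p = 0.0436), and on day 4 it was -2.37 ± 0.79 in dSCs (adjusted p = 0.168) and -2.24 ± 0.79 in bSCs (adjusted p = 0.229). Without the 3 libraries with fewer than 11000 genes detected, 2 of which are iSC libraries, the Cldn1 difference was not called on day 2 (-2.63 ± 0.87, adjusted p = 0.382) or on day 4 (adjusted p = 0.0518 in dSCs and 0.0594 in bSCs).

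Among the 10 contrasts of a single day with iSCs, the genes called were Cldn1 in dSCs of day 2 and Cldn1, Tjp1 and F11r in dSCs and in bSCs of day 4. All 9 genes were lower than in iSCs in each of the 10 contrasts, which share the same 5 iSC libraries. The median log2 difference of the 9 genes lay between -3.07 and -1.20 over these contrasts, beside -0.09 to 0 for all genes tested. The share of all genes called was 0.18% on day 1, 0.445% on day 2, 1.73% on day 4, 0.554% on day 6, 0.303% on day 8 and 0.354% on day 10 in dSCs. In bSCs it was 1.57% on day 4, 1.33% on day 6, 0.303% on day 8 and 1.3% on day 10. Of the 9 genes, 1 passed the test over all dSC days (F11r), where 0.767% of all genes passed, and 2 passed the test over all bSC days (Tjp1 and F11r), where 1.39% did. Neither test was passed by any of the 9 genes without the near-identical pair.

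**Figure D2:**
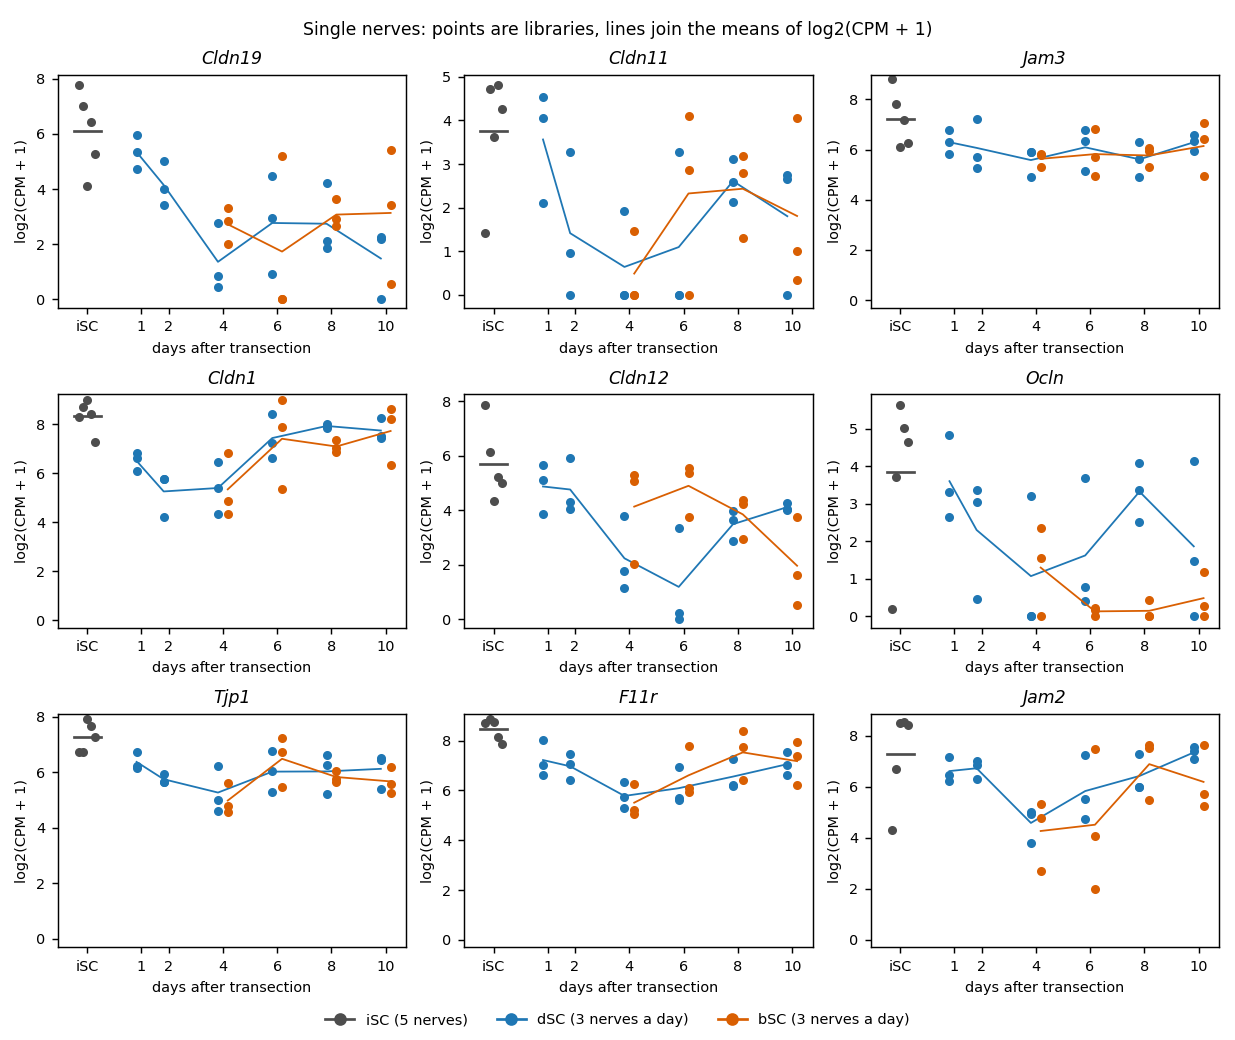
Levels of the 9 genes in the single-nerve experiment as log2(CPM + 1), against days after transection. Grey points are the 5 iSC libraries with their mean as a bar, blue points are dSCs and orange points bSCs, 3 nerves a day, and lines join the daily means. Cldn1 dips on days 1 to 4 and is higher from day 6, and Ocln is near 0 in bSCs from day 6.

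JAM-A and ZO-1 were the genes of the set that passed a test over all days of a region. F11r stood at 415, 466, 427, 280 and 232 CPM in single-nerve iSCs. The 12 dSC libraries of days 4 to 10 ranged from 38.1 to 186 CPM, all below the lowest iSC library, as were 5 of the 6 dSC libraries of days 1 and 2. In bSCs F11r ranged from 32.4 to 336 CPM, with 10 of 12 libraries below the lowest iSC library. The largest F11r differences were on day 4, at -2.69 ± 0.58 in dSCs (adjusted p = 0.0105) and -2.93 ± 0.58 in bSCs (adjusted p = 0.00610). F11r passed the test over all dSC days (adjusted p = 0.0307) and the test over all bSC days (adjusted p = 0.0256). Without the near-identical pair the day 4 differences in F11r were -2.42 ± 0.68 (adjusted p = 0.0863) and -2.64 ± 0.69 (adjusted p = 0.0640). The tests over days then gave adjusted p = 0.0990 for dSCs and 0.103 for bSCs. Without the 3 libraries with fewest genes F11r was called on day 4 in both regions (adjusted p = 0.0249 and 0.0161) but did not pass the tests over days (adjusted p = 0.160 and 0.0785). Leaving out a single library ended the F11r call over dSC days for 16 of 23 libraries, with adjusted p up to 0.0947 without intact replicate 1, and the call over bSC days for 5 of 17, namely intact replicates 0 (0.0597), 1 (0.0609) and 3 (0.0589) and bridge day 4 replicates 1 (0.0968) and 2 (0.102).

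In the pooled experiment F11r stood at 87.7, 42.5, 64.8 and 88.6 CPM in iSCs, 57.6, 75.4, 69.9 and 24.5 CPM in dSCs and 147, 51.8, 77.9 and 26.6 CPM in bSCs. The 3 regions overlapped, and the log2 difference from iSCs was -0.32 in dSCs, with a 95% interval from -1.36 to 0.73, and 0.10 in bSCs, with an interval from -0.95 to 1.14. The pooled iSC level of F11r was thus below every single-nerve iSC library, and the experiments were scaled separately.

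ZO-1 links strand proteins to actin. Tjp1 stood at 106, 104, 241, 203 and 153 CPM in single-nerve iSCs, at 23.3 to 107 CPM in the 18 dSC libraries and at 22.6 to 149 CPM in the 12 bSC libraries. Of the injured libraries, 16 of 18 dSC and 10 of 12 bSC libraries were below the lowest iSC library. Tjp1 was called on day 4 in dSCs (-1.93 ± 0.51, adjusted p = 0.0426) and bSCs (-2.32 ± 0.52, adjusted p = 0.0169), and it passed the test over all bSC days (adjusted p = 0.0310) but not that over dSC days (adjusted p = 0.205). Over dSC days 1 of 7 alternative settings called Tjp1. Without the near-identical pair the day 4 values of Tjp1 were -1.56 ± 0.59 in dSCs (adjusted p = 0.238) and -2.08 ± 0.61 in bSCs (adjusted p = 0.111), and the test over bSC days gave adjusted p = 0.0862. Without the 3 libraries with fewest genes Tjp1 stayed called on day 4 (adjusted p = 0.0249 in dSCs and 0.00898 in bSCs) and over bSC days (0.0195). Leaving out a single library ended the Tjp1 call over bSC days for 10 of 17 libraries, with adjusted p up to 0.0985 without bridge day 4 replicate 2. In the pooled experiment Tjp1 was at 146, 128, 72.1 and 80.1 CPM in iSCs, 110, 67.5, 29.5 and 53.7 CPM in dSCs and 81.9, 37.2, 45.3 and 26.4 CPM in bSCs. The groups overlapped, and neither difference from iSCs was called (-0.71 ± 0.44, adjusted p = 0.501, and -1.16 ± 0.44, adjusted p = 0.0952).

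JAM-B varied widely among libraries of the same group. Jam2 stood at 19, 104, 360, 369 and 340 CPM in single-nerve iSCs, at 13 to 188 CPM in dSCs and at 2.93 to 200 CPM in bSCs. The lowest iSC library was below all but 1 of the 18 dSC libraries, and the other 3 high iSC libraries were above all 30 injured libraries. On day 4 the Jam2 difference was -3.27 ± 1.01 in dSCs (adjusted p = 0.0832) and -3.33 ± 1.01 in bSCs (adjusted p = 0.0899). Without the near-identical pair it was -3.37 ± 1.26 (adjusted p = 0.229) and -3.35 ± 1.26 (adjusted p = 0.274). Without the 3 libraries with fewest genes, among them both iSC libraries of low Jam2, it was called on day 4 (-3.83 ± 0.99, adjusted p = 0.0431, and -3.89 ± 1.00, adjusted p = 0.0374). The tests over days were not passed (adjusted p = 0.477 and 0.228). Of the 17 fits with a library left out, 1 called Jam2 over bSC days, that without bridge day 6 replicate 3 (adjusted p = 0.0382). In the pooled experiment Jam2 was at 35.2 to 65.8 CPM in iSCs, 18.6 to 119 CPM in dSCs and 1.87 to 78.3 CPM in bSCs, with no difference called.

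The summed endothelial markers reached their highest values in single-nerve iSCs, with overlap, and Cldn5 alone made up a large part of the sum there. The summed level of 12 endothelial genes was 1897 to 6059 CPM in single-nerve iSCs, 449 to 2629 CPM in dSCs and 396 to 4199 CPM in bSCs. In the pooled experiment the endothelial sum was 192 to 899 CPM in iSCs, 180 to 544 CPM in dSCs and 185 to 1143 CPM in bSCs, and these ranges overlapped. Cldn5, the claudin of endothelium and a gene of that list, named after its values were seen, was at 844 to 2794 CPM in single-nerve iSCs, 23.6 to 375 CPM in dSCs and 21.1 to 387 CPM in bSCs, with no overlap. It was called in the tests over dSC days (adjusted p = 0.00183) and bSC days (adjusted p = 0.000672). Of the other 11 genes of the list, 9 overlapped between single-nerve iSCs and both injured regions. Cldn5 was also called lower in pooled dSCs, by -2.80 ± 0.73 on the log2 scale (adjusted p = 0.0409), at 19.3 to 259 CPM in iSCs and 8.13 to 38.5 CPM in dSCs. Mural markers, a list of 7 genes, overlapped among the single-nerve regions, at 819 to 4097 CPM in iSCs, 545 to 4289 CPM in dSCs and 565 to 2302 CPM in bSCs. The part of endothelial cells in the F11r, Tjp1 and Jam2 results was not tested.

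**Figure D3:**
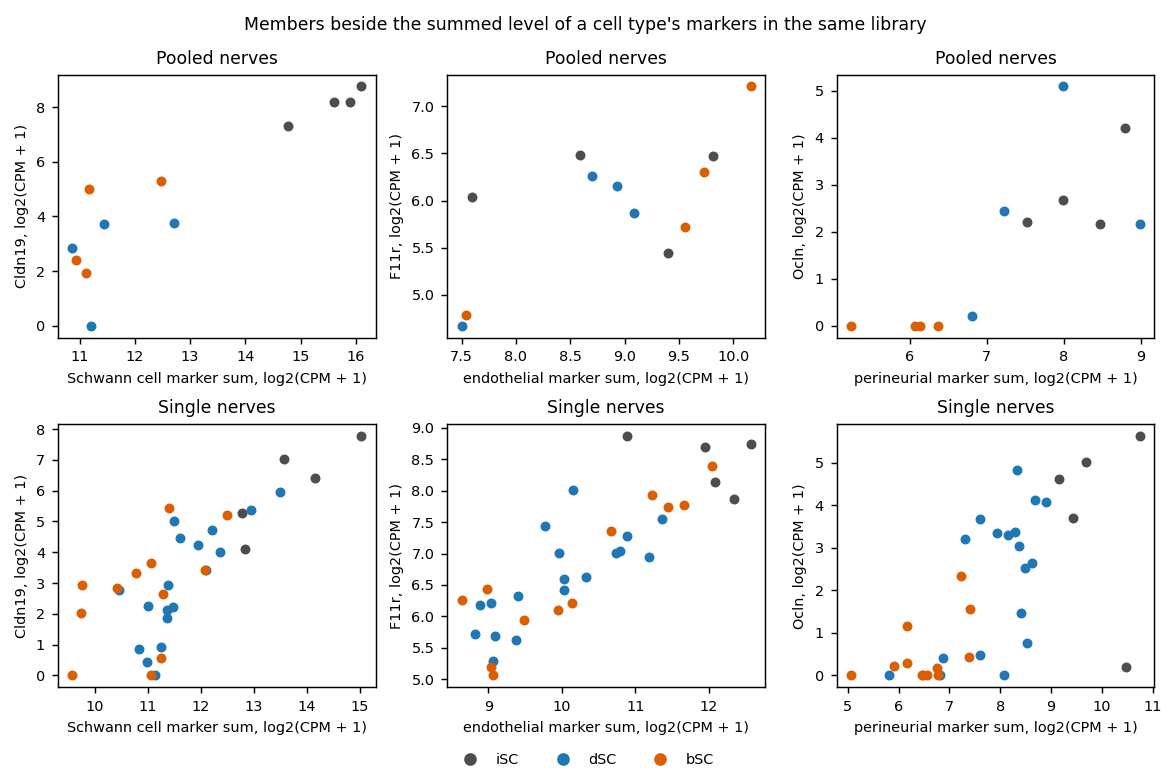
Levels of Cldn19, F11r and Ocln in each library as log2(CPM + 1), against the summed level of SC, endothelial or perineurial marker genes in the same library, for 12 pooled (top) and 35 single-nerve libraries (bottom). The endothelial sum includes Cldn5. The bSC libraries of the pooled experiment lie at 0 for Ocln and at the lowest perineurial sums, and all 5 single-nerve iSC libraries hold F11r at 232 CPM or more.

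Claudin-12, a widely expressed claudin without the usual scaffold-binding tail, had lower mean levels after injury without being called by edgeR. Cldn12 stood at 51.5, 52.6, 76.2 and 17.1 CPM in pooled iSCs, 10.6, 0, 21.9 and 6.42 CPM in dSCs and 24.3, 14.2, 24.9 and 35.9 CPM in bSCs. A single dSC library lay above the lowest iSC library, and the log2 difference was -2.34 ± 1.03 (adjusted p = 0.268). In single nerves the iSC libraries held 230, 68.9, 19.1, 36.6 and 30.5 CPM, and all 12 dSC libraries of days 4 to 10 were at 18.4 CPM or less. The bSC libraries ranged from 0.430 to 46.1 CPM. Within animals Cldn12 was higher in the bridge in 8 of 11, namely in all 6 animals of days 4 and 6 and in 2 of 3 of day 8, and lower in both animals of day 10. The near-identical pair is 1 of the 6, and without it Cldn12 was higher in the bridge in 7 of 10, with a mean log2(CPM + 1) difference of 1.17 ± 2.84 (SD). Over dSC days DESeq2 called Cldn12 (adjusted p = 0.0194), and edgeR did without distal day 6 replicate 3 (adjusted p = 0.0349). The test of whether the difference between the regions changed with the day was not passed (unadjusted p = 0.0524, adjusted p = 1).

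Between bSCs and dSCs of single nerves, none of the 9 genes was called by edgeR averaged over days 4 to 10, where 0.103% of all genes were called, and none in the test of whether that difference changed between days, where 0% were called. At an unadjusted p under 0.05, 1 gene was found averaged over days (Ocln) and none in the test between days, and DESeq2 called Ocln in the former and none in the latter. On single days, unadjusted p under 0.05 were found on day 6 for Cldn12 (0.0182, adjusted p = 0.663) and Ocln (0.0393, adjusted p = 0.663) and on day 8 for Ocln (0.0202, adjusted p = 1), and none of the 9 genes was called, where 0%, 0.00644%, 0% and 0.0129% of all genes were on days 4, 6, 8 and 10. The log2 differences of the other genes averaged over days had 95% intervals from -0.73 to 0.68 for Cldn1, -0.71 to 0.36 for Tjp1, -0.68 to 0.64 for Jam3, -0.15 to 1.02 for F11r, -1.08 to 0.88 for Jam2, -0.21 to 2.36 for Cldn12, -0.50 to 2.74 for Cldn19 and -1.94 to 2.58 for Cldn11. The intervals were narrow for Tjp1, F11r, Jam3 and Cldn1 and wide for the low claudins.

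**Figure D4:**
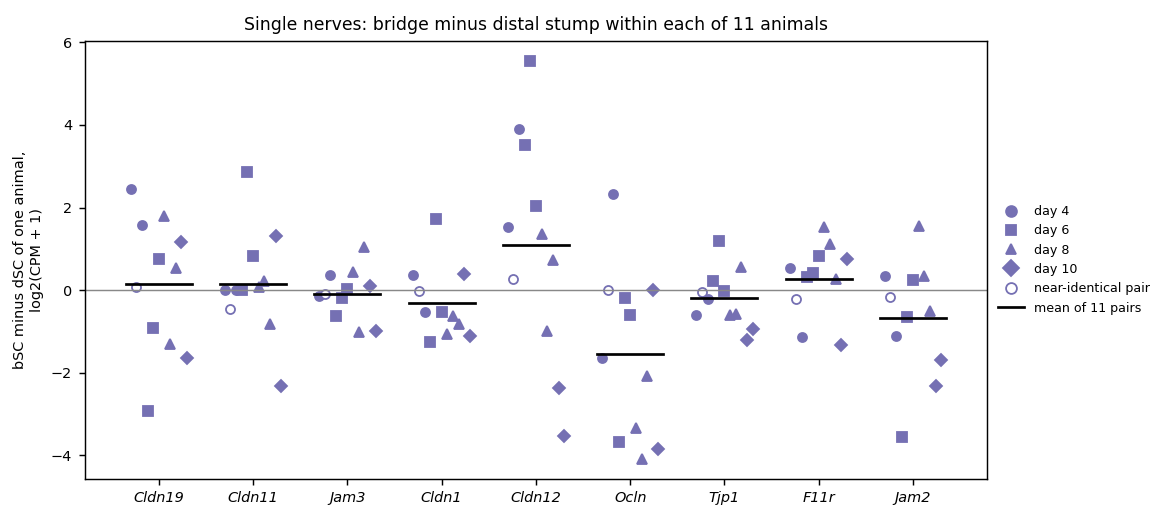
Differences between bSCs and dSCs of the same animal, in log2(CPM + 1), for 11 animals with both regions. Symbols give the day, open symbols the near-identical day 4 pair, and bars the mean. The Ocln values are at or below 0 in 10 of 11 animals, and Cldn12 is above 0 on days 4 and 6 and below 0 on day 10.

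Per length of exon, the mean levels of the 9 genes stood in another order in iSCs than in injured nerve. In pooled iSCs the mean level per kilobase was 96.3 ± 30.9 CPM for Jam3, 69.0 ± 26 for Cldn19, 45.9 ± 18.2 for Cldn1, 26.6 ± 8.22 for F11r, 23.5 ± 15.3 for Cldn11, 14.5 ± 4.88 for Tjp1, 12.1 ± 5.97 for Cldn12, 8.39 ± 2.67 for Jam2 and 1.78 ± 1.61 for Ocln (SD, n = 4). Neighbours in this order overlapped, except that Jam2 lay above Ocln in all 4 libraries. In pooled dSCs Cldn1 led at 50.7 ± 20.8 CPM per kilobase, before F11r at 21.4 ± 8.56 and Jam3 at 19.9 ± 3.65, and Cldn19 was last at 1.83 ± 1.41. Every pair of neighbours overlapped in dSCs, and without distal replicate 1 Ocln was last at 0.638 CPM per kilobase with Cldn19 at 2.44. In pooled bSCs Cldn1 led at 39.7 ± 36.3 CPM per kilobase, before F11r at 28.5 ± 19.4 and Jam3 at 18.4 ± 3.56, and Ocln was last at 0. Without bridge replicate 1 these were 22.5 for Cldn1, 19.9 for Jam3 and 19.6 for F11r, so their order was not resolved. In single-nerve iSCs F11r led at 137 ± 38.2 CPM per kilobase, before Cldn1 at 107 ± 40.6 and Jam3 at 75.2 ± 60.8 (n = 5), and Cldn19 was at 22.7 ± 18.7.

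Beyond the 9 genes, 70 other genes of tight junctions and cell polarity were listed, of which 39 were tested in the pooled and 42 in the single-nerve experiment. Between pooled dSCs and iSCs 5 were called lower and 1 higher, which is 15.4% beside 5.32% of all genes. Between bSCs and iSCs 6 were called lower and 1 higher, 17.9% beside 14.7%, and between bSCs and dSCs 2 lower and 1 higher, 7.69% beside 5.43%. In single nerves 1 of the 42 was called over dSC days and 1 over bSC days, Cldn5 in both, and none between the regions averaged over days, with no scaffold of 16 and no polarity gene of 9 called. In dSCs the scaffolds Mpdz, a protein of many PDZ domains, and Mpp5, a polarity scaffold also known as Pals1, differed from iSCs by -1.70 and -1.52 on the log2 scale (adjusted p = 0.0325 and 0.0143). Cgnl1, or paracingulin, was higher by 2.62 (adjusted p = 0.0256), at 84 ± 46 CPM in dSCs against 13.6 ± 6.73 CPM in iSCs. Pard6b, a partner of atypical protein kinase C in the polarity complex, was at 2.03 to 17.3 CPM in iSCs and at no more than 1 count in any dSC library (adjusted p = 0.0280) or bSC library (adjusted p = 0.0124).

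In bSCs Mpdz was lower than in iSCs by 2.39 on the log2 scale (adjusted p = 0.00259). Pard3b, a PAR-3 relative, was at 14.5 to 23.6 CPM in bSCs, against 45.7 to 59.0 CPM in iSCs and 36.0 to 52.3 CPM in dSCs (adjusted p = 0.00961 and 0.0393). Cdc42, the small GTPase that acts on the polarity complex, was higher in bSCs, at 1148 to 1436 CPM against 580 to 785 CPM in iSCs and 579 to 796 CPM in dSCs (adjusted p = 0.00557 and 0.0227). Cldn22 was at 11.3 to 26 CPM in iSCs, 0.306 to 4.57 CPM in dSCs and at no more than 1 count in any bSC library (adjusted p = 0.00158 against iSCs and 0.0180 against dSCs). Cldn3 and the scaffold Cgn, or cingulin, were at 0 in all 4 bSC libraries and at 0.0807 to 2.65 CPM and 0.985 to 6.16 CPM in iSCs (adjusted p = 0.0356 and 0.0254). The median log2 difference of the 39 genes was -0.18 in dSCs and -0.98 in bSCs against iSCs, beside -0.02 and -0.16 for all genes.

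For each of the 9 genes, the 3 other genes with the most similar log2 CPM over the 35 single-nerve libraries were listed, with Pearson's r there and over the 12 pooled libraries. These values describe libraries that share groups, scaling and cell mixtures, and carry no p. For Cldn19 they included Prx, or periaxin, a protein of SC myelin (r = 0.79, pooled 0.77), and Mbp, or myelin basic protein (0.78, pooled 0.76). For Jam3 they were Cmtm5 (0.84, pooled 0.73), Alad (0.79, pooled 0.80) and Mlip (0.76, pooled 0.82). For F11r they were Cav2 (0.91, pooled 0.57), Tspan13 (0.89, pooled 0.56) and Cldn5 (0.88, pooled 0.23). For Jam2 they were Vwf, or von Willebrand factor of endothelium (0.84, pooled 0.88), Ptprb, a phosphatase of endothelium (0.80, pooled 0.75), and Fry (0.79, pooled 0.66). The pooled r was 0.66 or more for the genes named for Jam3 and Jam2, and low for F11r with Cldn5.

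For Cldn1 the most similar genes were Gjb2, or connexin 26 (0.83, pooled 0.62), Slc44a2 (0.81, pooled 0.23) and Trib2 (0.77, pooled 0.69), and for Tjp1 they were Ndrg2 (0.75, pooled 0.41), Gpr182 (0.74, pooled 0.36) and Rasl12 (0.73, pooled 0.13). For Ocln they were Plin4 (0.73, pooled 0.25), Adra1b (0.73, not tested in the pooled libraries) and Ctxn3 (0.72, pooled 0.57). For Cldn11 they were Ctnnal1 (0.76, pooled 0.39), Smim5 (0.74, pooled -0.14) and Gstm7 (0.71, pooled 0.37). For Cldn12 they were Slc27a3 (0.79, pooled -0.30), Tmem143 (0.78, pooled 0.23) and Tmem29 (0.77, pooled -0.09).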

How the data were processed

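Of the mouse files, the 12 pooled and 35 single-nerve libraries were used. The deposited values are read counts per gene, which the authors made from Smart-seq2 libraries with TopHat2 2.0.11 on mm9 and HTSeq. The gene annotation and the strand setting are not given in the sources used here. Lanes of a library were summed, and the 92 ERCC spike-ins and 5 HTSeq categories of unassigned reads were left out of library sizes. Counts on genes were 39.1 to 47.1% of reads counted on genes, on spike-ins, outside genes or as ambiguous. Tests used edgeR 4.0.16 (R 4.3.3) with filterByExpr, TMM scaling and the quasi-likelihood test, Benjamini-Hochberg adjustment over all genes tested, and a prior count of 2 for log2 CPM. The filter removed no member. The pairing of regions followed the pool and animal numbers in the labels. Deviations from group means correlated with a mean r of -0.01 within pool numbers, beside 0.004 across them. In single nerves the mean r was 0.15 within animals, beside -0.06 across them. Alternatives were DESeq2 1.42.0, its size factors, other filters, fewer libraries in the fit, blocks, and each library left out. Statistics were tested on simulated data. The 9 members, the wider lists and the markers were chosen with earlier results of these data known. Named genes were the called genes of the wider lists without overlap between groups, and the 3 genes most similar to each member. Replicates are separate nerves or pools. A few genes that these rules name are not reported here.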

Additional observations from a re-analysis of the deposited data

Results flagged for a closer look

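Among 35 gene and group combinations of 4 or 5 libraries, 3 had a library far from the others, and chance alone would give such a gap in about 1 in 20. Ocln was 17.6 CPM in pooled intact replicate 1, against 3.47 to 5.39 CPM in the other iSC libraries. Ocln was 33.2 CPM in pooled distal replicate 1, against 0.149 to 4.43 CPM in the other dSC libraries. Both libraries carry the same pool number. Cldn12 was 230 CPM in single-nerve intact replicate 0, against 19.1 to 68.9 CPM in the other iSC libraries, and this is 1 of the 3 libraries with fewer than 11000 genes detected.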

How the results depend on the processing

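Of 388 values of single genes recomputed under alternatives, 361 kept their direction and their side of the threshold, and of 1008 with a library left out, 931 did. Most of these values belong to genes that were not called, where keeping to that side was likely. Among called values, 13 lost their call under alternatives and 45 with a library left out. With the animal number as a replicate block, 1 gene of the set was called in pooled dSCs against iSCs, 1 in bSCs against iSCs and 0 between bSCs and dSCs, and uncalled log2 differences changed sign for Ocln in dSCs (-0.86), F11r in bSCs (-0.31) and, in single nerves, Cldn19 between regions (-0.66). DESeq2 called 5 over dSC days, 5 over bSC days and 1 (Ocln) between regions. Over dSC days 2 were called with no filter, 2 with the study's filter and 2 when only the groups compared were fitted, a fit that gave 0 over bSC days and 0 between pooled bSCs and dSCs, where Ocln was not tested. Chosen after seeing the data, removal of the near-identical pair left 0 and 0 over dSC and bSC days, removal of the 3 libraries with fewest genes left 0 and 1, and pairing a day 10 bridge library by the number in its title left 0 called between regions. The Ocln bounds and the levels per kilobase without a library were chosen then too. Leaving out each library gave 1 to 2 called for pooled dSCs against iSCs, 2 to 5 for bSCs against iSCs, 0 to 1 for bSCs against dSCs, 0 to 2 over dSC days and 0 to 4 over bSC days. The counts of this paragraph are given without the share of all genes called under the same settings. They were therefore not weighed against a background here, and no conclusion on the set as a whole is drawn from them. The causes were not tested.

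Uncalled log2 differences that changed sign when a library was left out had these ranges. In pooled dSCs against iSCs they were -0.13 to 0.36 for Cldn1, -1.48 to 1.33 for Ocln and -0.58 to 0.43 for Jam2. In pooled bSCs against iSCs they were -0.997 to 0.15 for Cldn1 and -0.42 to 0.38 for F11r. In pooled bSCs against dSCs they were -1.18 to 0.0017 for Cldn1, -1.26 to 0.16 for Jam2 and -0.14 to 0.70 for F11r. Between single-nerve bSCs and dSCs they were -0.37 to 0.12 for Cldn1, -0.83 to 0.13 for Jam2, -0.23 to 0.041 for Jam3, -1.25 to 2.40 for Cldn11 and -1.53 to 1.57 for Cldn19. Jam3 in both pooled comparisons with iSCs was called under all 5 alternatives and without any of 8 libraries. The low counts of Ocln, Cldn11 and Cldn12 limit what these libraries can show.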
